A study of Rattus norvegicus with 82 samples.

Results

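Rats with a clip around the pulmonary artery (PAB) carry a pressure load on the right side of the heart. The left ventricle (LV) lies remote from the band, and the right ventricle (RV) faces it. The libraries described here are the LV cardiomyocyte libraries of these animals and of sham-operated animals, chosen by the ventricle and the operation in their titles and pooled over both stages of the disease, 28 of the 82 libraries of the series. They comprise 12 libraries of PAB animals and 16 of Sham animals, with 1 library per animal. The whole series holds both ventricles of 41 rats after PAB, aortic banding (AOB) or sham operation.

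All animals were F1 offspring of female Wistar Kyoto and male Lewis rats. The H groups (LV Sham-H, n = 7 and LV PAB-H, n = 6) were at the compensated, hypertrophic stage, harvested 7 weeks after the operation at a labelled age of 11 weeks. The F groups were at the decompensated, failing stage, with LV PAB-F (n = 6) taken 22 weeks after the operation at 28 weeks of age and LV Sham-F (n = 9) taken 26 weeks after it at 31 weeks of age. By these labels banding and age cannot be told apart within the F stage. The study's methods give other ages at the operation and at harvest than the labels, so the ages are uncertain. Males made up 8 of the 12 PAB animals and 7 of the 16 Sham animals, and the count of Eif2s3y, a Y-linked gene, matched the labelled sex in all 28 libraries. Hearts were digested with collagenase, the ventricles were separated and the cardiomyocytes were enriched by filtration and centrifugation. Total RNA was then depleted of ribosomal RNA and sequenced. The stage was a covariate, so that 1 banding effect was estimated from both stages, and values of single genes are normalised counts on 1 scale over the whole series.

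A ventricle that pumps against a raised pressure thickens its wall, and its cardiomyocytes return to a fetal pattern of expression with natriuretic peptides, skeletal actin and slow myosin. The LV of a PAB heart faces no raised pressure of its own, but it shares the septum, the pericardium and the circulating hormones with the loaded RV.

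The 28 libraries held between 10121379 and 19665439 counts on genes. The ventricular cardiomyocyte markers were the most abundant of the marker lists and took 11.1% to 15.8% of the counts of a library, with 12 of the 13 listed genes in the table. The 10 fibroblast markers took 0.0506% to 0.444%, the 9 endothelial markers 0.126% to 0.407% and the 9 macrophage markers 0.00305% to 0.0225%. The first principal component of log2 CPM, counts scaled to the size of the library, held 54% of the variance and separated the stages rather than the operations. On it, 4 libraries lay nearer to the median of the other stage, namely LV Sham-H replicates 4 and 5, LV PAB-H replicate 2 and LV PAB-F replicate 5. LV PAB-H replicate 2 was male and the others were female. The mean level of fibroblast, endothelial and macrophage markers also varied along this component. In LV PAB-H the fibroblast share ranged from 0.0527% to 0.210% (median 0.0945%) and in LV Sham-H from 0.0506% to 0.252% (median 0.0980%). In LV PAB-F the range was 0.0972% to 0.444% (median 0.307%) against 0.151% to 0.411% (median 0.244%) in LV Sham-F, so the groups overlapped at both stages.

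**Figure D1:**
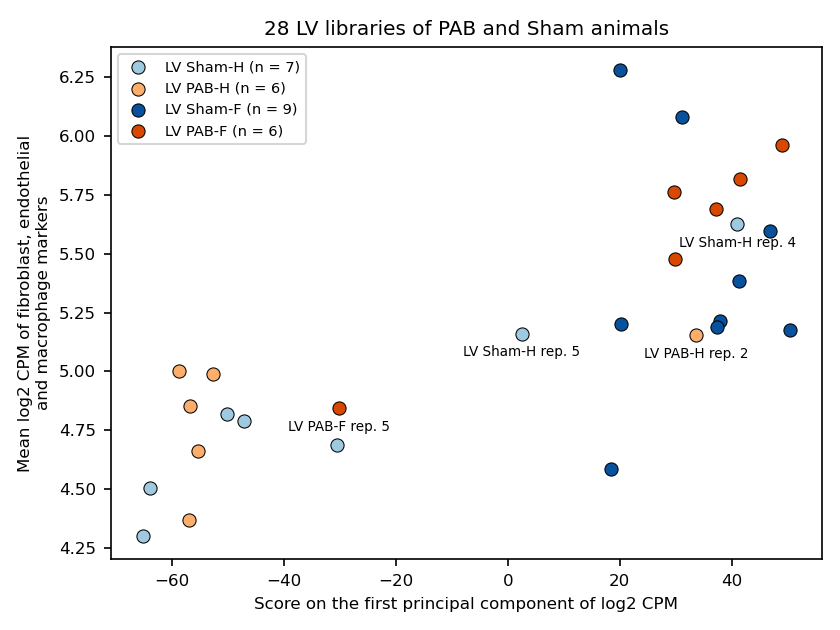
Each point is 1 LV library, with its score on the first principal component of log2 CPM on the x axis and the mean log2 CPM of fibroblast, endothelial and macrophage markers on the y axis, coloured by group. The stages separate along the x axis except for the 4 named libraries, and PAB and Sham libraries of a stage overlap.

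No gene passed an adjusted p of 0.05 in the remote LV. Of 11595 genes tested with edgeR's quasi-likelihood test, 0 (0%) were called, and the lowest adjusted p was 0.898. At an unadjusted p of at most 0.01 there were 63 genes (0.543%), 30 higher (0.259%) and 33 lower (0.285%), and at an unadjusted p under 0.05 there were 390 (3.36%), 171 higher (1.47%) and 219 lower (1.89%). A uniform distribution of p would give 116 genes at an unadjusted p of at most 0.01, more than the 63 found. The single genes named below are thus a description, and none was called in the LV. DESeq2 gave 0 genes at an adjusted p of 0.05 and 92 at an unadjusted p of at most 0.01. Without the 4 libraries nearer to the other stage, 0 genes were called and 71 had an unadjusted p of at most 0.01, and with the markers of other cells as a covariate the numbers were 0 and 102.

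The intervals show how large a change these 28 libraries leave room for. The median standard error of a log2 fold change was 0.14, and the 95% interval of 11178 genes (96.4%) lay within a 2-fold change in either direction. For 8915 genes (76.9%) it lay within 1.5-fold. The median log2 fold change over all genes was 0.011, and 6111 genes (52.7%) were above 0.

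With thresholds like those of the study, here applied to the unadjusted p of the pooled edgeR fit (p of at most 0.01, a change over 2-fold and a mean normalised count over 50 in the banded group), 1 gene of 11595 (0.00862%) qualified. It was Nppa, the atrial natriuretic peptide that cardiomyocytes release upon stretch. In LV Sham-H its normalised counts were 790.4 to 3899 around a median of 1527 and in LV PAB-H 1792 to 10016 around a median of 3319. In LV Sham-F they were 1919 to 12454 around a median of 3106 and in LV PAB-F 2777 to 20925 around a median of 8409.7. All 6 PAB-H libraries and 5 of the 6 PAB-F libraries exceeded the median of their Sham group, but the ranges overlapped at both stages. The pooled log2 fold change was 1.02 (SE 0.33, edgeR unadjusted p = 0.00378), with 1.17 at the H stage and 0.89 at the F stage. In LV Sham-F the sexes did not overlap, with 6568 to 12454 in the 4 male and 1919 to 3106 in the 5 female LV Sham-F libraries. With sex as a covariate the log2 fold change of Nppa was 0.75 (unadjusted p = 0.00717), and without LV PAB-H replicate 1, the highest of its group, it was 0.82 (unadjusted p = 0.0123). Without the 4 libraries nearer to the other stage it was 1.17.

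Nppb, the gene of the B-type natriuretic peptide, differed less. Its normalised counts were 4437 to 12602 around a median of 6245 in LV Sham-H and 4774 to 10033 around a median of 7586 in LV PAB-H. They were 4786 to 9763 around a median of 7946 in LV Sham-F and 7605 to 13302 around a median of 10683 in LV PAB-F, where 4 of 6 libraries exceeded every Sham library. The log2 fold change was 0.29 (SE 0.14, unadjusted p = 0.048), and it was 0.38 without the 4 libraries nearer to the other stage, among them LV Sham-H replicate 4, the highest Sham library. With sex as a covariate it was 0.26 (unadjusted p = 0.0859). Myh7, the slow beta myosin heavy chain, gave 0.43 (SE 0.20, unadjusted p = 0.0445) and Ankrd23, a stretch-responsive ankyrin repeat protein of the sarcomere, 0.52 (SE 0.25, unadjusted p = 0.0445). Myh7 was 0.078 in males and 0.60 in females. With sex as a covariate Ankrd23 was 0.35 (unadjusted p = 0.0811), and without LV PAB-H replicate 1 it was 0.35 (unadjusted p = 0.141). Acta1, the skeletal actin, was at 0.34 (SE 0.24, unadjusted p = 0.171) and was -0.026 in males alone. Over the 13 genes tested of the fetal and load program, 11 were above 0, beside 52.7% of all genes. Of the 13 genes, 4 were higher at an unadjusted p under 0.05, against 1.47% of all genes in that direction. The median was 0.29, beside 0.011 over all genes, but it was 0.18 with sex as a covariate and 0.016 in males alone.

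**Figure D2:**
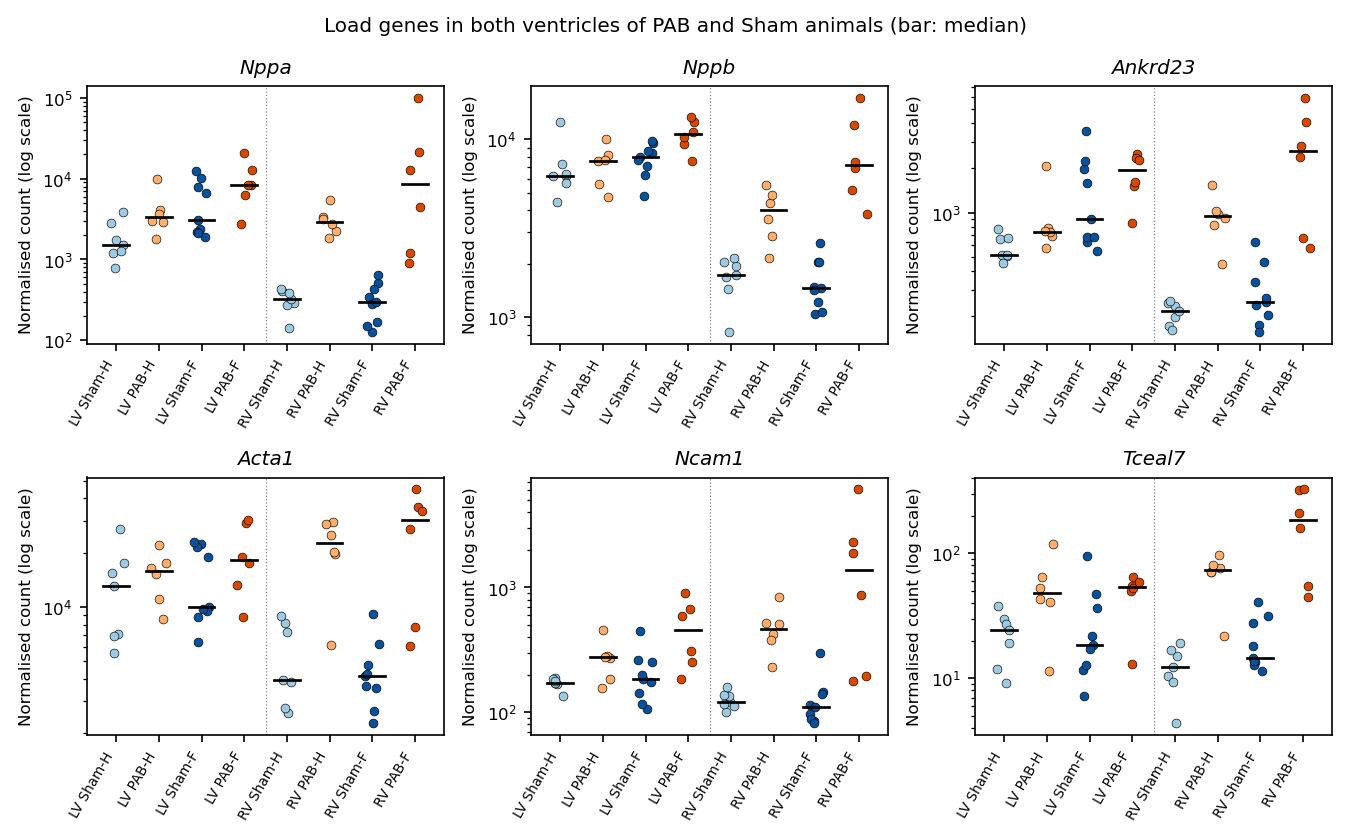
Normalised counts on a log scale of 6 genes in each library of both ventricles, by group, with a bar at the median and a dotted line between LV and RV. In the LV the PAB and Sham libraries of each stage overlap for all 6 genes, whereas in the RV the PAB medians lie above every Sham library for all 6.

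The sequences before the annotated starts of 4 of these load markers are shown for the cardiac motifs they hold. They were taken from RefSeq (assembly GRCr8), which held 9 of 11 genes sought, and span 250 bases up to the start, 5′ to 3′ on the strand of the gene. Capitals mark the MCAT element CATTCC, which TEAD factors bind, the CArG box of serum response factor and the GATA motif TGATAA, each searched on both strands.
Nppa: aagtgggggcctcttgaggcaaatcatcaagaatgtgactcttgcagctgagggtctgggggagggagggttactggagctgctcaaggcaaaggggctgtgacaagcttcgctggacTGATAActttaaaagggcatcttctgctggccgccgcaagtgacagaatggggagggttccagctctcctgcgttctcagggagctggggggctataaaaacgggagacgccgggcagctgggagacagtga
Nppb: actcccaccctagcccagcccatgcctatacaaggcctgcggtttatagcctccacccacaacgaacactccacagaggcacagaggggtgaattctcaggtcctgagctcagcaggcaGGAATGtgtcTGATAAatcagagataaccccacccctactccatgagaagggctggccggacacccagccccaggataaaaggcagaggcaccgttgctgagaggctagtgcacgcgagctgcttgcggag
Acta1: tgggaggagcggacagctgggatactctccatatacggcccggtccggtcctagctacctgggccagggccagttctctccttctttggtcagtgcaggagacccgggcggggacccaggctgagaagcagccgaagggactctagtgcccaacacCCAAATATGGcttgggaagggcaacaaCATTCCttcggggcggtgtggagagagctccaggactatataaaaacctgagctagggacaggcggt
Tceal7: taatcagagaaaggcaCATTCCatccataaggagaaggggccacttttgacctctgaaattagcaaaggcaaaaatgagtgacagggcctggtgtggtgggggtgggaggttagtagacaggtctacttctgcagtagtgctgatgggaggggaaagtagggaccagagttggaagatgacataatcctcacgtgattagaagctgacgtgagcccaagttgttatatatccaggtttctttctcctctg
These windows lie at chr5:163711934-163712183 (plus strand) for Nppa, chr5:163699758-163700007 (plus strand) for Nppb, chr19:68784195-68784444 (minus strand) for Acta1 and chrX:104019834-104020083 (plus strand) for Tceal7. Among 33469 promoters of this length, 12.1% held the MCAT element, 1.5% a CArG box and 7.97% the GATA motif. Of the 9 genes found, 5 held the MCAT element (Acta1, Ankrd23, Nppb, Tceal7 and Thbs4), 1 the CArG box (Acta1) and 2 the GATA motif (Nppa and Nppb). A match describes the letters of the window and no binding was measured here.

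Among the other genes with higher values in the LV upon PAB, Ncam1 had the lowest p. It encodes the neural cell adhesion molecule, which diseased cardiomyocytes express again. Its normalised counts were 136 to 187 around a median of 173 in LV Sham-H and 155 to 459 around a median of 276 in LV PAB-H, with 4 of 6 PAB libraries above every Sham library. In LV Sham-F they were 106 to 446 around a median of 185 and in LV PAB-F 185 to 902 around a median of 453, with 3 of 6 above every Sham library. The log2 fold change was 0.97 (SE 0.22, unadjusted p = 0.000114, adjusted p = 0.898 by edgeR), and it lay between 0.78 and 1.14 under the other settings. Its lowest adjusted p in any of them was 0.0984.

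Tceal7, a nuclear protein of the transcription elongation factor A-like family, was low in all groups. LV Sham-H held 9.22 to 38 around a median of 24.2 normalised counts and LV PAB-H 11.5 to 118 around a median of 47.9, where 5 of 6 libraries exceeded every Sham library. LV Sham-F held 7.14 to 95.9 around a median of 18.5 and LV PAB-F 13 to 64.7 around a median of 53.8, where none did. The log2 fold change was 0.99 (SE 0.34, unadjusted p = 0.00588), with 0.48 in males and 1.52 in females, a difference that was not tested. Wbp5, a gene of the same family also known as Tceal9, was at 0.57 (SE 0.19, unadjusted p = 0.00429).

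The remaining higher genes of this kind had log2 fold changes between 0.36 and 0.76. Akip1, which binds and localises protein kinase A, was at 0.61 (SE 0.18, unadjusted p = 0.00198). Cpeb1, which controls the poly(A) tails of mRNAs, was at 0.60 (SE 0.18, unadjusted p = 0.00211), and all 6 PAB-F libraries exceeded the Sham-F median. Mybpc2, the fast skeletal myosin-binding protein C, was at 0.45 (SE 0.14, unadjusted p = 0.00226), again with all 6 PAB-F libraries above the Sham-F median. The prostaglandin F receptor gene Ptgfr was at 0.76 (SE 0.24, unadjusted p = 0.0034), the sodium/proton exchanger gene Slc9a3 at 0.67 (SE 0.20) and the mitochondrial carrier gene Slc25a14 at 0.36 (SE 0.13). Together with Nppa, Ncam1, Tceal7 and Wbp5 these are the 10 higher genes that had a mean over 50 in the LV of PAB or Sham animals, an unadjusted p of at most 0.01 with and without sex as a covariate, and 1 direction at both stages. None of the 10 passed an adjusted p of 0.05.

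The rule found 22 genes on the lower side, and the 12 with the lowest p differed by less than 1 on the log2 scale. Efhd1, a calcium-binding protein of the mitochondrial inner membrane, had the lowest p of these. Its normalised counts were 449 to 664 around a median of 524 in LV Sham-H and 355 to 487 around a median of 418 in LV PAB-H, with 5 of 6 below every Sham library. LV Sham-F held 304 to 507 around a median of 399 and LV PAB-F 302 to 351 around a median of 325, with all 6 below the Sham median. Its log2 fold change was -0.31 (SE 0.081, unadjusted p = 0.000676).

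Of these genes, Rrad and Cacng6 have roles at calcium channels. Rrad, a small GTPase that restrains the L-type calcium channel, had normalised counts of 6886 to 11674 around a median of 7703 in LV Sham-H and 4691 to 8567 around a median of 6435 in LV PAB-H. At the F stage it had 5119 to 8871 around a median of 6834 in LV Sham-F and 4293 to 7394 around a median of 5663 in LV PAB-F, so that the groups overlapped while the PAB medians were lower at both stages. The log2 fold change of Rrad was -0.35 (SE 0.11, unadjusted p = 0.00268). Cacng6, an auxiliary calcium channel subunit, was at -0.37 (SE 0.12), with -0.63 in males and -0.068 in females, a difference that was not tested. Hhatl, which is most abundant in striated muscle, was at -0.30 (SE 0.092, unadjusted p = 0.00258). For Hhatl all 6 PAB-H libraries lay below the Sham-H median, at 3750.4 to 4848 around a median of 4185 against 4228 to 6134 around a median of 4963. Kcnj12, an inward rectifier potassium channel, was not among the 12, as its unadjusted p was 0.0151 by edgeR with sex as a covariate. It was the 1 of 20 genes of the potassium and sodium channel list with an unadjusted p under 0.05, beside 3.36% of all genes. Its log2 fold change was -0.22 (SE 0.076, unadjusted p = 0.00651).

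The other lower genes had varied roles. Ppp1r3d, which directs protein phosphatase 1 to glycogen, was at -0.24 (SE 0.067, unadjusted p = 0.00141), and all 12 PAB libraries lay below the Sham median of their stage. Smad3, the transcription factor of TGF-beta signalling, was at -0.27 (SE 0.089, unadjusted p = 0.00443). Neu2, a cytosolic sialidase, was at -0.54 (SE 0.15), Art1, a muscle ADP-ribosyltransferase, at -0.41 (SE 0.12) and Fhl3, a LIM protein of muscle, at -0.31 (SE 0.10). Magix, Gpr157 and Tspan18 were at -0.33, -0.25 and -0.30. For Gpr157 the H groups did not overlap, with 481 to 588 around a median of 581 normalised counts in LV PAB-H and 591 to 823 around a median of 638 in LV Sham-H. Its test at that stage had an unadjusted p of 0.0562 by edgeR and passed no threshold. How many of all genes lack an overlap was not counted.

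**Figure D3:**
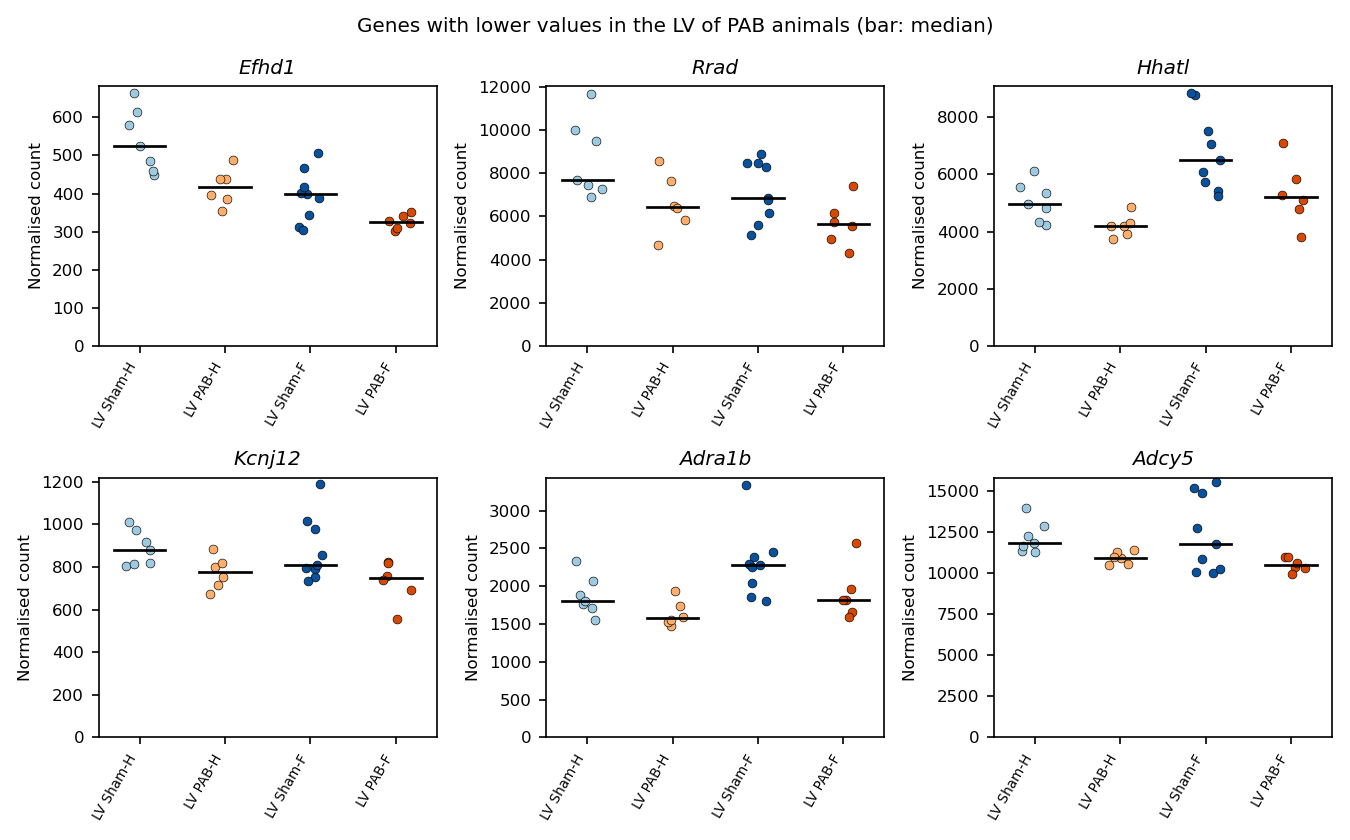
Normalised counts (linear scale from 0) of 6 genes with lower values upon PAB in each of the 28 LV libraries by group, with a bar at the median. The PAB medians lie below the Sham medians of the same stage for all 6 genes, and the libraries overlap at least in part in each pair of groups.

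Of the adrenergic and cAMP signalling list, 25 genes were tested and 3 had an unadjusted p under 0.05, all lower, against 1.89% of all genes in that direction. These were the alpha-1 adrenoceptors Adra1d (-0.40, SE 0.15, unadjusted p = 0.0102) and Adra1b (-0.22, SE 0.087, unadjusted p = 0.0153) and the main cardiac adenylyl cyclase Adcy5 (-0.18, SE 0.070, unadjusted p = 0.0144). Adcy5 counts were 10529 to 11451 around a median of 10954 in LV PAB-H and 11316 to 13985 around a median of 11856 in LV Sham-H, with 4 of 6 PAB libraries below every Sham library. All 6 LV PAB-F libraries, at 9955 to 11020.4 around a median of 10516, lay below the LV Sham-F median of 11788. The median of the list was -0.082, and in the loaded RV it was -0.26. There 16 genes fell and 8 rose at an adjusted p under 0.05, beside 19.8% and 24.4% of all genes.

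The RV of the same animals gives the size of a direct response. There 5036 of 11406 genes tested (44.2%) passed an adjusted p of 0.05 upon PAB with the same model, 2780 higher (24.4%) and 2256 lower (19.8%). Whether the ventricles differed was tested as an interaction in 56 libraries with the animal as a block, and 1519 of 11820 genes (12.9%) differed at an adjusted p under 0.05. The RV response was above that of the LV for 1096 genes (9.27%) and below it for 423 (3.58%). This difference comes from 1 model of both ventricles with the spread shared between them, so it is not the subtraction of the separate fits. Without the animals of the 4 libraries nearer to the other stage the number was 596, and without the animal block it was 656. In a bulk sample fewer cells of a type and less RNA per cell cannot be told apart. At an adjusted p under 0.05 all 9 fibroblast markers and 8 of 9 macrophage markers tested rose in the RV upon PAB, beside 24.4% of all genes. In the LV 0 of the 9 and 0 of the 9 had an unadjusted p under 0.05, a different threshold, beside 3.36% of all genes. The ventricles differed at an adjusted p under 0.05 for 3 of the 9 fibroblast and 4 of the 9 macrophage markers, beside 12.9% of all genes.

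The 8 markers of the loaded RV were drawn from the study's PAB-regulated genes, which were found on these same animals. All 8 differed between the ventricles, with adjusted p between 0.000139 and 0.00476 by edgeR, which is not independent evidence of their direction in the RV. Penk, the gene of the opioid precursor proenkephalin, had a log2 fold change of 2.53 (SE 0.26) in the RV and 0.14 (SE 0.16) in the LV. Its LV counts were 1691 to 3183 around a median of 2268 in PAB-H against 866 to 3299 around a median of 1845 in Sham-H. In the RV they were 261 to 2015 around a median of 927 in PAB-H against 186 to 294 around a median of 237 in Sham-H, so the median of the Sham-H LV lay above that of the PAB-H RV.

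The RV counts of Nppa were 141 to 436 around a median of 321 in Sham-H and 1873 to 5401 around a median of 2947 in PAB-H, and 127 to 644 around a median of 294 in Sham-F and 909.6 to 100875 around a median of 8677 in PAB-F. Its log2 fold change was 4.92 (SE 0.58) in the RV and 1.02 in the LV, and the difference was 2.92 (SE 0.42, adjusted p = 0.000171 by edgeR). In Sham animals the RV held less Nppa than the LV at both stages, without overlap. Cilp, a matrix protein, was at 2.45 in the RV and 0.091 (SE 0.22) in the LV, where its sign turned to -0.058 with sex as a covariate. Hs3st2, a heparan sulfate sulfotransferase, had LV counts of at most 19 and did not pass the filter on low counts in the RV.

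Ncam1, Tceal7, Akip1 and Mybpc2 each had a larger response in the RV. The difference, RV minus LV, was 1.62 (SE 0.27, adjusted p = 0.0007 by edgeR) for Ncam1 and 1.75 (SE 0.39, adjusted p = 0.00476) for Tceal7. For Akip1 it was 1.27 (adjusted p = 0.00804) and for Mybpc2 0.71 (adjusted p = 0.0159). Efhd1, Ppp1r3d and Tspan18 were lower in the RV by more than in the LV, with differences of -0.52, -0.46 and -0.34 (adjusted p = 0.00587, 0.00651 and 0.0205 by edgeR). Ptgfr had a log2 fold change of 0.76 in the LV and 0.20 (adjusted p = 0.381) in the RV, but the difference of -0.56 had an adjusted p of 0.0515 by edgeR. For Smad3, Hhatl and Gpr157 the differences were 0.013 (SE 0.075), -0.071 (SE 0.10) and -0.046 (SE 0.10), and none of the 3 passed.

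397 genes rose over 2-fold in the RV at an adjusted p under 0.05 (3.48% of those tested), and 384 of them were tested in the LV. Their median log2 fold change was 1.19 in the RV and 0.14 in the LV, beside 0.011 over all genes in the LV. In the LV 287 of the 384 (74.7%) were above 0, beside 52.7% of all genes, and 38 (9.90%) were higher at an unadjusted p under 0.05, beside 1.47% of all genes. These genes were chosen on their RV values, so the 235 of them whose responses differed between the ventricles at an adjusted p under 0.05 are a description. For 328 the LV interval lay within a 2-fold change. Both ventricles come from the same animals, so the balance of the sexes and the course of each operation are shared between these values. With sex as a covariate 245 of the 384 were above 0 (median 0.10), with the other-cell markers as a covariate 252 (median 0.095) and without the 4 libraries nearer to the other stage 349 of 383 (median 0.24). Without these 4 libraries the LV values of the markers of other cells were also mostly above 0, with 9 of 9 fibroblast (median 0.18), 8 of 9 macrophage (0.28), 9 of 9 mural (0.15) and 9 of 9 endothelial markers (0.11). With all 28 libraries the numbers were 5, 3, 4 and 5 of 9, and the part of these cells in the result was not tested without the 4 libraries. In males alone 297 were above 0 (median 0.17), and in females alone 183 of 380 (median -0.019). Of the 27 genes that fell over 2-fold in the RV (0.237%), 24 were tested in the LV, and of these 19 were below 0 there, with a median of -0.18 beside -1.12 in the RV.

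**Figure D4:**
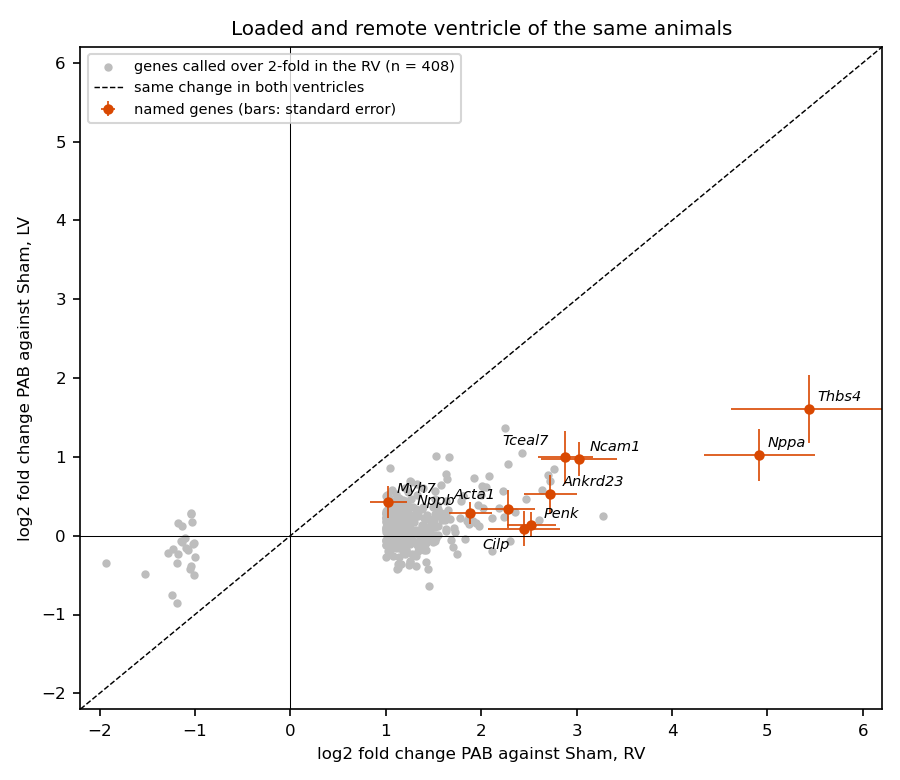
The log2 fold change upon PAB in the RV (x axis) and in the LV (y axis) of the 408 genes called over 2-fold in the RV, in grey, and of 10 named genes with their standard errors, in orange. All 10 named genes lie below the dashed line of equal change, and 287 of the 384 genes that rose in the RV lie above 0 on the LV axis.

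Of 33 collagen and matrix genes, 32 rose and 0 fell in the RV (median 1.11), beside 24.4% and 19.8% of all genes. In the LV 16 were above 0 (median -0.0057), beside 52.7% of all genes. The ventricles differed for 22 of the 33 at an adjusted p under 0.05, beside 12.9% of all genes. In the LV 31 of the 33 were above 0 (median 0.15) without the 4 libraries nearer to the other stage and 28 (median 0.088) with the first principal component as a covariate, where most markers of other cells were above 0 as well. In the LV 1 of the 33 had an unadjusted p under 0.05, beside 3.36% of all genes. That member was Thbs4, a matricellular thrombospondin. It had 2.08 to 25.7 around a median of 5.50 normalised counts in LV Sham-H and 4.44 to 16.2 around a median of 11.8 in LV PAB-H. In LV Sham-F it had 2.46 to 21.4 around a median of 12.7 and in LV PAB-F 11.3 to 185 around a median of 31.6, with 4 of 6 above every Sham library. The log2 fold change was 1.61 (SE 0.43, unadjusted p = 0.000852), and it was 1.09 without LV PAB-F replicate 1, the highest library, and 2.18 without the 4 libraries nearer to the other stage. In the RV it was 5.44 (SE 0.83), and the difference between the ventricles was 2.74 (adjusted p = 0.00548 by edgeR).

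Of the TGF-beta and CCN genes, 18 of 23 rose and 2 fell in the RV (median 0.64), beside 24.4% and 19.8% of all genes. The median of the list was 0.013 in the LV (0.12 without the 4 libraries). In the LV 1 of the 23 had an unadjusted p under 0.05, beside 3.36% of all genes. This was Tgfb2, a ligand of the family, at 0.56 (SE 0.23, unadjusted p = 0.0207) beside 2.23 in the RV. It was 0.070 in males and 1.15 in females. Cell cycle genes had a median of -0.041 in the LV and 0.50 in the RV, where 11 of 22 rose, beside 24.4% of all genes. Ccnd2, a cyclin of the G1 phase, was at 0.29 (SE 0.11, unadjusted p = 0.0152) in the LV. Chemokines and cytokines had medians of -0.016 in the LV and 0.58 in the RV. In the LV 0 of 21 had an unadjusted p under 0.05, beside 3.36% of all genes.

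Of 43 oxidative phosphorylation genes 33 fell and 0 rose in the RV (median -0.25), beside 19.8% and 24.4% of all genes. In the LV the median was -0.039 and 0 of 43 had an unadjusted p under 0.05, beside 3.36% of all genes. All 43 intervals lay within a 2-fold change, beside 96.4% of all genes. The ventricles differed for 9 of the 43 at an adjusted p under 0.05, beside 12.9% of all genes. For fatty acid oxidation 19 of 30 fell and 0 rose in the RV (median -0.27), and 6 differed between the ventricles. The LV median was -0.016 (-0.11 without the 4 libraries, with 6 of 30 above 0 in place of 14). Of 31 genes of glucose use 10 fell and 3 rose in the RV, where 19.8% and 24.4% of all genes did. In the LV 9 of the 31 were above 0, beside 52.7% of all genes. Of the 30 fatty acid oxidation genes, 1 had an unadjusted p under 0.05 in the LV, beside 3.36% of all genes. It was Mlycd, the malonyl-CoA decarboxylase that relieves the brake on mitochondrial fatty acid uptake, at -0.24 (SE 0.11, unadjusted p = 0.0371, and 0.0533 with sex as a covariate). Ribosomal proteins had medians of -0.063 in the LV and -0.19 in the RV, and proteasome subunits 0.034 and -0.15.

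Most interferon-stimulated genes lay above 0 in both ventricles. In the LV 23 of 33 were above 0, beside 52.7% of all genes, with a median of 0.18. The median was 0.12 with sex as a covariate, 0.24 in males and -0.31 in females. Only Ifi44 of the 33 had an unadjusted p under 0.05 (0.31, SE 0.12, unadjusted p = 0.0122), beside 3.36% of all genes. In the RV 26 of 33 rose (median 0.50), beside 24.4% of all genes, and the ventricles differed for 6 of the 33, beside 12.9% of all genes. Without the 4 libraries nearer to the other stage 32 of 33 were above 0 in the LV (median 0.17). Immediate early genes, the transcription factors and phosphatases that a stimulus induces first, were below 0 for 24 of 26 in the LV (median -0.19). Yet 0 of the 26 had an unadjusted p under 0.05, beside 3.36% of all genes. That median was -0.054 without the 4 libraries nearer to the other stage.

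No gene of the sarcomere and calcium cycling lists had an unadjusted p under 0.05 in the LV, beside 3.36% of all genes. The sarcomere list had a median of 0.018 over 20 genes in the LV and -0.19 in the RV. There 10 fell and 0 rose, beside 19.8% and 24.4% of all genes, and 4 of the 20 differed between the ventricles, beside 12.9%. Without the 4 libraries 1 of the 20 was above 0 in the LV (median -0.071), in place of 11. The calcium cycling list had a median of 0.086 in the LV and -0.14 in the RV, where 10 of 20 fell and 3 rose, beside 19.8% and 24.4% of all genes. Its LV median was 0.0018 without the 4 libraries and -0.096 in males, with 4 of 20 above 0, and 0.34 in females. Of the 20 genes 5 differed between the ventricles, beside 12.9% of all genes. The RV response was above that of the LV for 2 of them and below it for 3. Pln and Trdn are of these 3 and were added after the values were seen. Pln, the inhibitor of the calcium pump of the sarcoplasmic reticulum, was at 0.12 in the LV and -0.33 in the RV, which differed at an adjusted p of 0.0151 by edgeR, and Trdn, the triadin of the calcium release complex, was at 0.41 and -0.28 (adjusted p = 0.0315).

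Of 16 hormone and receptor genes tested, 2 had an unadjusted p under 0.05 in the LV, beside 3.36% of all genes. Npr3, the clearance receptor of natriuretic peptides, was at 0.51 (SE 0.19, unadjusted p = 0.0114) and at 1.33 in the RV. It was 0.050 in males and 1.03 in females. Agt, angiotensinogen, was at -0.37 (SE 0.15, unadjusted p = 0.0172) and at 0.15 in the RV. Other single members with an unadjusted p under 0.05 were Hyou1 (-0.19) and Creld2 (-0.30) of the unfolded protein response, Itga7 (-0.18) of the intercalated disc list and Ulk1 (-0.21), a kinase that starts autophagy. With sex as a covariate Ulk1 was -0.12 (unadjusted p = 0.116) and Creld2 -0.26 (unadjusted p = 0.088). Over all 26 lists, 19 of 651 genes (2.92%) had an unadjusted p under 0.05 in the LV, 9 higher and 10 lower, beside 3.36% of all genes. The lists of the integrated stress response, glycolysis, circadian clock, hypoxia, antioxidant, glucocorticoid-responsive and splicing genes had no such member and medians between -0.11 and 0.098.

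**Figure D5:**
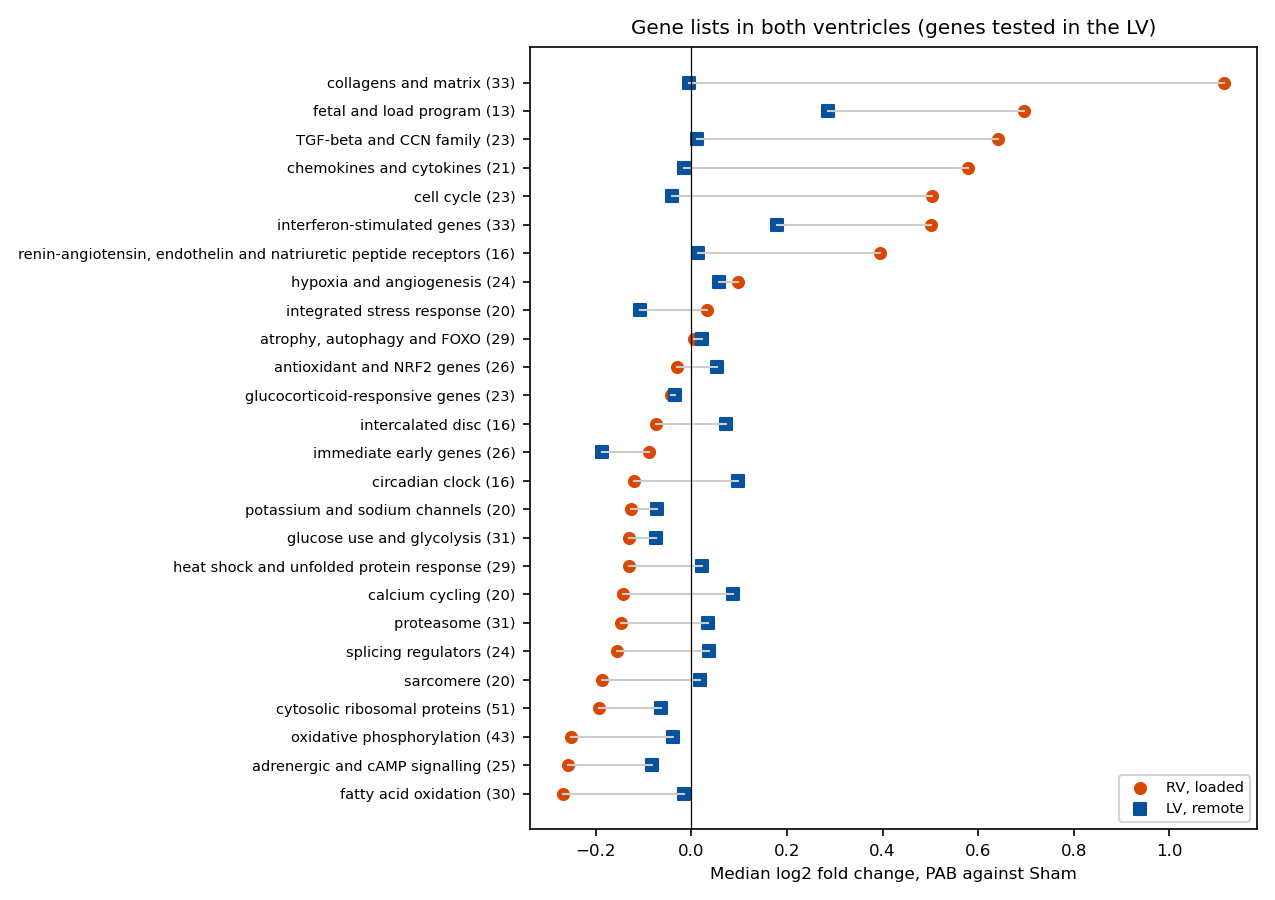
Median log2 fold change upon PAB over the genes of each of 26 lists (number of genes tested in brackets) in the LV (blue squares) and the RV (orange circles). The LV medians lie between -0.19 and 0.29 and the RV medians between -0.27 and 1.11.

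By stage, LV PAB-H against LV Sham-H gave 0 genes at an adjusted p under 0.05, 14 (0.121%) at an unadjusted p of at most 0.01 and 159 (1.37%) at an unadjusted p under 0.05. LV PAB-F against LV Sham-F gave 0, 28 (0.241%) and 222 (1.91%). By the same 3 criteria 1 gene qualified at the H stage (0.00862%) and 3 at the F stage (0.0259%). The gene of the H stage, LOC257642, rested on LV PAB-H replicate 6, with 1300.3 normalised counts beside at most 286 in the others, and its pooled log2 fold change of 1.35 was 0.47 without it. Those of the F stage were Ncam1 (1.22), Slc9a3 (1.02) and Thbs4 (2.41). At the F stage 4 of 6 Slc9a3 libraries exceeded every Sham library, with 34.8 to 101 around a median of 55.5 in LV PAB-F and 17.2 to 44.7 around a median of 27.7 in LV Sham-F.

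The difference between the stages, F minus H, passed an adjusted p of 0.05 for 0 of 11595 genes, 9 (0.0776%) had an unadjusted p of at most 0.01 and 89 (0.768%) one under 0.05, of which 75 (0.647% of all) had the higher response at the F stage and 14 (0.121%) the lower. DESeq2 gave 0 and 11 at an unadjusted p of at most 0.01. The lowest p belonged to Nos1, the neuronal nitric oxide synthase, with a difference of 1.46 (SE 0.38, unadjusted p = 0.000576). Nos1 counts were 11.1 to 29.7 around a median of 18.7 in LV PAB-H beside 10.9 to 49.4 around a median of 25.3 in LV Sham-H. At the F stage they were 51.3 to 103 around a median of 80.1 in LV PAB-F beside 28.9 to 57.7 around a median of 36.9 in LV Sham-F, with 4 of 6 PAB libraries above every Sham library. St6galnac3, a sialyltransferase, differed by 1.09 and Eme1, a DNA repair endonuclease subunit, by 1.49. Eme1 had at most 13.3 normalised counts in an LV library.

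Whether the LV differed between a band on the pulmonary artery and a band on the aorta, which loads it directly, was tested in the same way. The AOB animals were of the same cross, with LV AOB-H (n = 6) taken at 11 weeks of age, 7 weeks after the operation, and LV AOB-F (n = 7) at 31 weeks of age, 26 weeks after it, so PAB-F and AOB-F also differ in age. Of 11765 genes 0 (0%) passed an adjusted p of 0.05, 185 (1.57%) had an unadjusted p of at most 0.01 and 914 (7.77%) one under 0.05. Of these 914, 383 (3.26% of all) were higher upon PAB and 531 (4.51%) higher upon AOB. The sexes were balanced differently, with most LV AOB-H animals female and most LV PAB-H animals male. With sex as a covariate 0 genes passed an adjusted p of 0.05 and 265 had an unadjusted p of at most 0.01. The values of single genes below are without sex as a covariate. DESeq2 was not run for this comparison. Among the load genes, Ncam1 was at -1.02 (SE 0.37, unadjusted p = 0.00895), Tgfb2 at -0.92 (unadjusted p = 0.00306) and Ankrd23 at -0.78 (unadjusted p = 0.013) for PAB minus AOB on the log2 scale, and none of the 3 passed an adjusted p of 0.05. Nppa was at -0.64 (SE 0.36, unadjusted p = 0.0776) and Nppb at 0.042 (SE 0.15).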

How the data were processed

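Cardiomyocyte RNA of 82 rat libraries was sequenced by the authors after depletion of ribosomal RNA (Illumina NovaSeq, both ends). The authors trimmed the reads (Trim Galore), aligned them to the rat genome (STAR) and counted them per gene (featureCounts). The deposited table holds raw counts of 17337 genes, DESeq2 1.28.1 normalised counts (a signal per gene) and FPKM values made by the authors. Every test used the raw counts. The authors' FPKM and normalised values entered no test. No columns were left unassigned.

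Groups, sexes and animals came from the labels, and no label or protocol names a separate culture or batch. Counts of the 28 LV libraries were fitted with edgeR 4.0.16 in R 4.3.3 (TMM factors, genes kept by filterByExpr, quasi-likelihood test, Benjamini-Hochberg adjustment) with stage and banding as terms. The same fit was made for the RV, for each stage, for the stage difference and for PAB against AOB in the LV, and RV against LV was an interaction with the animal as a block. Single-gene values are raw counts over the TMM effective library size, times its mean over the series. Where DESeq2 was run (an alternative), its version was 1.42.0. The functions were tested on simulated data.

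The libraries, gene lists, marker lists and tests were chosen with earlier results of these data known. Genes named are those with a mean over 50 in the LV of PAB or Sham animals, an unadjusted p of at most 0.01 also with sex as a covariate and 1 direction at both stages (up to 12 each way), up to 4 members of each list with the lowest p, the 8 markers drawn from the study's PAB-regulated genes and the 3 genes with the lowest p for the stage difference. After the values were seen, list members were narrowed to those with an unadjusted p under 0.05, and LOC257642 (by the 3 thresholds), Pln and Trdn were added. A gene that the rule also picked is not reported here. The alternatives were DESeq2 size factors, no filter on low counts, DESeq2, sex or the marker score as a covariate, 4 group means, all 82 libraries, a replicate block and leaving out each library in turn. Fits with the first principal component, with each sex alone and without 4 libraries were added after seeing the data. RefSeq promoter sequences (GRCr8) were matched by symbol, and the build of the counts differs.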

Additional observations from a re-analysis of the deposited data

Results flagged for a closer look

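For named genes, 192 groups of 6 to 9 LV libraries were tested for a library far from the others, and 24 stood apart by Dixon's criterion, which chance gives in about 1 of 20 groups. Values are normalised counts. LV PAB-F replicate 1 stood apart for Ptgfr at 513 (the nearest other library at 248) and Thbs4 at 185 (the nearest other library at 72.8). LV PAB-F replicate 3 stood apart for Ifi44 at 284 (the nearest other library at 177). LV PAB-F replicate 6 stood apart for Tceal7 at 13 (the nearest other library at 49.9) and Cacng6 at 133 (the nearest other library at 87.8). LV PAB-H replicate 1 stood apart for Akip1 at 228 (the nearest other library at 112), Nppa at 10016 (the nearest other library at 4089.5), Myh7 at 194447 (the nearest other library at 115445) and Ankrd23 at 2058 (the nearest other library at 780.3). LV PAB-H replicate 2 stood apart for Wbp5 at 70.9 (the nearest other library at 152) and Gpr157 at 481 (the nearest other library at 578). LV PAB-H replicate 6 stood apart for LOC257642 at 1300.3 (the nearest other library at 286). LV Sham-F replicate 2 stood apart for Adra1b at 3343 (the nearest other library at 2451). LV Sham-F replicate 3 stood apart for Npr3 at 769 (the nearest other library at 426). LV Sham-F replicate 4 stood apart for Ncam1 at 446 (the nearest other library at 264), Ptgfr at 305 (the nearest other library at 138) and Tceal7 at 95.9 (the nearest other library at 47.4). LV Sham-F replicate 7 stood apart for Smad3 at 1461 (the nearest other library at 1092). LV Sham-F replicate 8 stood apart for Penk at 3691 (the nearest other library at 2645). LV Sham-H replicate 2 stood apart for Ncam1 at 136 (the nearest other library at 168). LV Sham-H replicate 3 stood apart for Hyou1 at 5912 (the nearest other library at 4531). LV Sham-H replicate 4 stood apart for Thbs4 at 25.7 (the nearest other library at 6.66), Nppb at 12602 (the nearest other library at 7229.6) and Mlycd at 6079 (the nearest other library at 4742).

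The response to PAB differed between the RV and the LV of the same animals at an adjusted p under 0.05 (edgeR, interaction with the animal as a block) for 20 named genes. The response on the log2 scale, RV minus LV, was positive for Ankrd23 (1.97), Penk (2.14), Nppa (2.92), Acta1 (1.78), Nppb (1.5), Ncam1 (1.62), Cilp (1.82), Tgfb2 (1.41), Hs3st2 (3.88), Nos1 (1.43), Tceal7 (1.75), Thbs4 (2.74), Akip1 (1.27), Mybpc2 (0.71), Myh7 (0.51) and Cpeb1 (0.65). It was negative for Efhd1 (-0.52), Ppp1r3d (-0.46), Tspan18 (-0.34) and Ulk1 (-0.35).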

How the results depend on the processing

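In the pooled LV comparison 0 genes passed an adjusted p of 0.05 by edgeR or DESeq2 under each of 12 other settings and without each of the 28 libraries, and the lowest adjusted p of any gene was 0.0984 (Ncam1 by DESeq2) and 0.211 without 1 library. The 63 genes at an unadjusted p of at most 0.01 became 118 without the filter on low counts, 153 with all 82 libraries, 102 with the marker score and 105 with the first principal component as a covariate, 28 in males and 680 in females, and ranged from 35 to 138 without 1 library (35 without LV PAB-F replicate 1, 138 without LV PAB-H replicate 2, 120 without LV Sham-F replicate 3 and 109 without LV PAB-F replicate 4). The 1 gene by the 3 criteria became 2 with DESeq2 size factors, no filter, DESeq2, 4 group means, all 82 libraries or the marker score, 0 with sex, the replicate block or males alone and 47 in females, and ranged from 0 to 3 without 1 library. At the same threshold of 0.01, all 82 libraries gave 44 genes in place of 14 for LV PAB-H and 56 in place of 28 for LV PAB-F, which was 66 without the 4 libraries nearer to the other stage. The stage difference gave 44 in place of 9 without the filter and 17 without the 4 libraries. The 1519 genes that differed between the ventricles became 656 with no replicate block of the animal and 596 without the animals of the 4 libraries.

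The numbers of PAB and Sham libraries within a stage do not pair animals: of 12 same-numbered pairs 7 had a correlation of their deviations over 0.1 (range -0.47 to 0.47), and 2 correlated best with their own number. A replicate block gave 0 genes at an adjusted p of 0.05 in the pooled LV and 52 at an unadjusted p of at most 0.01, and 4064 in place of 5036 in the RV. Of the values of named genes under other settings, 13 turned in sign. Acta1 was -0.026 in males, Cilp -0.058 with sex, -0.13 with the replicate block and -0.13 in females, and Eme1 0.066 without the 4 libraries. St6galnac3 was -0.021 with 4 group means, -0.032 with all 82 libraries, -0.085 with the replicate block, -0.037 in males and -0.034 to 0.088 without 1 library, negative without LV Sham-F replicate 2 or 8 or LV PAB-F replicate 3 or 6. The cause was not tested. Every library held at least 10121379 counts, and whether deeper sequencing would change a call was not tested.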

Other observations

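Within each sex the band had fewer animals, 8 PAB and 7 Sham males and 4 PAB and 9 Sham females, and the settings were chosen after seeing the data. Neither sex gave a gene at an adjusted p under 0.05 by edgeR. In females 680 genes had an unadjusted p of at most 0.01 and the lowest adjusted p of a named gene was 0.169, whereas males gave 28 genes. LV Sham-H replicates 4 and 5 and LV PAB-F replicate 5, which lay nearer to the other stage, are female. Their groups hold few females, 4 in LV Sham-H and 2 in LV PAB-F. The values by sex, here and above, are thus mixed with the first principal component, and its part was not tested. Nppb, at 0.45 (SE 0.13) in males, was at 0.0078 (SE 0.25) in females. Thbs4 was at 2.04 (SE 0.49) in males and 0.91 (SE 0.54) in females. Ncam1 was at 0.80 and 1.14, and Nppa at 0.84 and 0.80. The difference between the sexes was not tested.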
